A study of Homo sapiens with 12 samples.

Results

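HIVEP1, HIVEP2 and HIVEP3 make up the human HIVEP family, also known as the Schnurri or ZAS proteins, and the 3 genes are described here across the libraries of a study of CO2 and inflammation in a monocytic cell line. They were chosen by a measured value: HIVEP2 had ranked first by p for the interaction of CO2 with LPS in an earlier analysis of the same libraries, and HIVEP1 and HIVEP3 were taken along as its family members. All 3 were among the 57500 genes of the count tables, and all 3 were among the 16402 that passed the filter on low counts and were tested. The interaction is the log2 change with LPS at 10% CO2 minus that at 5% CO2. For HIVEP2 the interaction and its component differences, and for all 3 genes the interaction, are therefore given as descriptions without a test.

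HIVEP proteins are very large nuclear factors that carry a pair of zinc finger modules far apart along the chain, and each module can bind the κB type of enhancer sequence that NF-κB also recognises. The family was named for binding to the enhancer of HIV-1, and the fly counterpart Schnurri acts with Smad proteins in Dpp signalling, the fly branch of BMP signalling. In mammals HIVEP2 is known to compete with NF-κB for κB sites in T cells and to act with SMAD proteins and C/EBPα in fat cell differentiation, while HIVEP3 binds the adaptor TRAF2 and, with the ubiquitin ligase WWP1, limits RUNX2 in bone-forming cells. HIVEP1 was first described as a protein that binds the interferon-β gene enhancer and the enhancers of MHC class I genes.

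The cells were THP-1, a long-established monocytic leukaemia line of human origin, and every group carried lentivirally delivered non-target shRNA, so untransduced cells were not part of the comparison. Cells were placed in buffered medium at 5% CO2 (normocapnia) or 10% CO2 (hypercapnia, with the medium buffered) for 4 h, and at each CO2 level one group spent the final 2 h with LPS, bacterial lipopolysaccharide that is sensed by TLR4, at 2.5 µg/ml. This gave 4 groups of 3 poly(A)-selected libraries: 5% and 10% CO2 alone, and both CO2 levels combined with LPS. Whether replicates were separate cultures is not in the labels, and a p-value here speaks of the spread among these libraries, which could be technical.

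Total gene counts lay between 17.1 and 22.2 M per library, and every HIVEP value below rests on at least 181 counts. All 14 markers of the monocyte line averaged at least 1 CPM (the count scaled to a fixed library size), with a summed level of 930 to 1330 CPM. The sums were 0.971 to 2.89 CPM for 6 T cell markers, 14.4 to 22.9 CPM for 5 B cell markers, 1.67 to 4.72 CPM for 6 fibroblast markers, 0.0442 to 1.30 CPM for 5 epithelial markers, 2.96 to 5.88 CPM for 5 endothelial markers and 0 to 0.179 CPM for 5 erythroid markers. The defining markers CD3D, CD3E, MS4A1, CD79A, EPCAM and HBB were under 1 CPM, and HBA1 was at 0 in every library. The 8 genes of a list of common LPS targets, among them TNF and IL1B, were all called higher with LPS at both CO2 levels. Of all tested genes, 11.8% at 5% CO2 and 16.6% at 10% CO2 were called higher with LPS. The share of counts on mitochondrial genes moved with CO2: it was 1.31 to 1.96% at 5% CO2 and 2.01 to 3.05% at 10% CO2, and 1.28 to 1.78% against 2.28 to 4.15% with LPS. Its part in the CO2 differences below was not tested.

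All 3 genes are long, and in each a single exon block holds a large part of the mature transcript. In the GRCh38 coordinates of the count tables, HIVEP1 (ENSG00000095951) spans chr6:12008762-12164999 on the forward strand, HIVEP2 (ENSG00000010818) spans chr6:142751467-142945201 on the reverse strand, and HIVEP3 (ENSG00000127124) spans chr1:41506365-42035925 on the reverse strand. Merged over transcripts, the exons of HIVEP1 form 14 blocks with 10979 bases, those of HIVEP2 form 11 blocks with 9774 bases, and those of HIVEP3 form 15 blocks with 14218 bases. The longest block is 5981 bases in HIVEP1, 5574 bases in HIVEP2 and 5582 bases in HIVEP3, which is 54.5%, 57.0% and 39.3% of the exon bases. The median tested gene has 4350 exon bases and a span of 25948 bases, against spans of 156238, 193735 and 529561 bases for HIVEP1, HIVEP2 and HIVEP3. The longest annotated GENCODE transcript is 45.6% GC for HIVEP1, 47.3% for HIVEP2 and 56.1% for HIVEP3. These GC values are of single transcripts and not of the merged exon blocks.

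Promoter sequence was at hand for HIVEP2 and HIVEP3, 2 of the 3 genes, in a RefSeq table of windows around annotated starts (GRCh38.p14). Both are shown because HIVEP2 is the gene the family was chosen for and differed between all 4 groups without overlap, while the libraries of HIVEP3 overlapped in every comparison. Lack of overlap was common, at 20.7% (CO2 without LPS) to 46.1% (LPS at 10% CO2) of all tested genes. Each run lies upstream of an annotated start of its gene, chr6:142945176 for HIVEP2 and chr1:42035934 for HIVEP3. Each is written 5′ to 3′ along the gene's own, reverse strand. The HIVEP2 run lies downstream of another annotated HIVEP2 start, at chr6:142945733, so it is not upstream of the gene as a whole. The HIVEP2 run is chr6:142945202-142945426 (225 bases, the stretch of the 250-base window that holds no annotated exon), and the HIVEP3 run is chr1:42035935-42036184 (250 bases, the whole window, which holds an annotated exon of ENSG00000287587 on the opposite strand). Capitals mark GC boxes, GGGCGG on either strand.
HIVEP2: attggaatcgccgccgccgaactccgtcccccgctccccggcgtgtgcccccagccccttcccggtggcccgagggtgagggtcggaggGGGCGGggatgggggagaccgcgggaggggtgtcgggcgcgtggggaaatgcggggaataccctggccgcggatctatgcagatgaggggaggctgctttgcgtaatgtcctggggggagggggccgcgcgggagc
HIVEP3: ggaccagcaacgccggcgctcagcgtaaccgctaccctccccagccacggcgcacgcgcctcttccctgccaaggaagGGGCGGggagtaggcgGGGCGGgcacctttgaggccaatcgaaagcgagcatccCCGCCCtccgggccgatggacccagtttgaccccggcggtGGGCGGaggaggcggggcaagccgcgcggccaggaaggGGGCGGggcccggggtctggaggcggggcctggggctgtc

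The HIVEP2 window held 1 GC box, 161 bases before the start, and the HIVEP3 window held 5. A GC box is the short site bound by Sp1-type factors, and 42.64% of the 35116 windows of 250 bases in the table held at least 1. Neither window held a match to the κB consensus (present in 9.96% of all windows), the AP-1 site TGANTCA (6.57%) or the cAMP response element TGACGTCA (1.65%), searched on both strands with overlapping matches counted. These counts say only which letters stand in the windows. A second annotated start of HIVEP2, at chr6:142945733, had 3 GC boxes in its window, and a second start of HIVEP3, at chr1:41918922, had 0.

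HIVEP1 rose strongly with LPS at both CO2 levels. HIVEP1 was at 14.8, 11.6 and 14.0 CPM in the 3 libraries at 5% CO2 and at 146, 122 and 141 CPM with LPS, where CPM is the count scaled to library size with TMM factors. The lowest library with LPS was far above the highest without it. The increase was 3.33 ± 0.14 on the log2 scale (± SE, 10.1-fold, edgeR quasi-likelihood test, adjusted p = 9.50e-13), in a comparison in which 24.9% of all tested genes were called and 11.8% were called higher. At 10% CO2 the gene went from 12.2, 9.18 and 8.48 CPM to 199, 155 and 175 CPM, again with no overlap, as for 46.1% of all tested genes (39.2% at 5% CO2). This was an increase of 4.14 ± 0.14 (17.7-fold, edgeR adjusted p = 5.03e-14), where 35.2% of tested genes were called and 16.6% were called higher. Averaged over both CO2 levels HIVEP1 rose by 3.74 ± 0.10 (13.3-fold, edgeR adjusted p = 4.28e-16), in a comparison in which 44.3% of genes were called, 20.4% higher and 23.8% lower.

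HIVEP2 was also higher with LPS in every library, from a higher starting level and by a smaller factor. At 5% CO2 it was at 40.3, 41.5 and 43.4 CPM without LPS and at 121, 102 and 139 CPM with LPS, 2.89-fold higher (log2 1.53 ± 0.10). At 10% CO2 it was at 33.2, 27.2 and 30.4 CPM without LPS and at 198, 195 and 198 CPM with LPS, 6.51-fold higher (log2 2.70 ± 0.11). These 2 differences make up the interaction by which the gene was chosen, so they are descriptions. The mean of both is a separate contrast in this balanced design, and it was tested. HIVEP2 rose by 2.12 ± 0.07 (4.34-fold, 95% confidence interval 1.96 to 2.27 on the log2 scale, edgeR adjusted p = 1.43e-14). This test shares its estimate of spread with the interaction that chose the gene. Its p and interval are therefore not independent of that choice.

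HIVEP3 showed no called change with LPS in the model that leaves replicate numbers out. It was at 375, 286 and 308 CPM at 5% CO2 and at 414, 351 and 261 CPM with LPS, and the libraries of the groups overlapped. The difference was 0.08 ± 0.26 on the log2 scale (95% confidence interval -0.50 to 0.67, edgeR adjusted p = 0.858). At 10% CO2 it was at 356, 195 and 218 CPM without and at 399, 275 and 283 CPM with LPS, again with overlap, a difference of 0.32 ± 0.26 (95% confidence interval -0.27 to 0.90, edgeR adjusted p = 0.392). Same-numbered libraries varied together in this comparison, and with the replicate number as a block the difference was 0.34 and passed the threshold (edgeR adjusted p = 0.0178). With LPS at 10% CO2 each library stood above its same-numbered partner without LPS, by a ratio of 1.12, 1.41 and 1.30. Averaged over CO2 the LPS difference was 0.20 ± 0.18 (edgeR adjusted p = 0.418). With the block it was 0.21 and passed (edgeR adjusted p = 0.0314), though pairing was not shown at 5% CO2.

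The spread of HIVEP3 between replicates was wider than that of its relatives. Its biological coefficient of variation in the fit was 22.0%, against 10.8% for HIVEP1, 9.24% for HIVEP2 and 10.7% for all genes in common. Replicate 1 was the highest of the 3 libraries in all 4 groups for HIVEP3 and for HIVEP1, but not for HIVEP2. The same held for 1102 of the 16402 tested genes (6.72%).

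**Figure D1:**
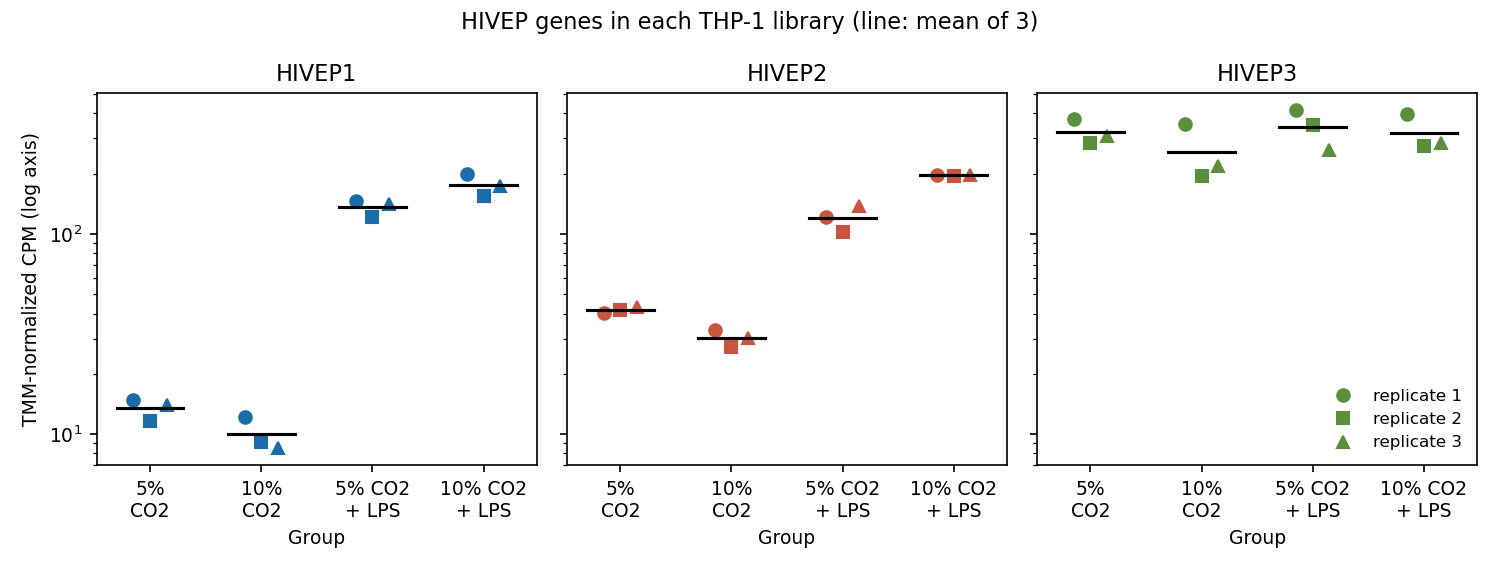
TMM-normalized CPM (log axis) of HIVEP1, HIVEP2 and HIVEP3 in the 12 libraries, by group, with the symbol giving the replicate number and the line the mean of 3. HIVEP1 and HIVEP2 separate completely by LPS, HIVEP3 overlaps between all groups, and the 3 HIVEP2 libraries at 10% CO2 with LPS lie between 195 and 198 CPM.

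Without LPS, the 3 genes were lower on average at 10% than at 5% CO2. HIVEP1 and HIVEP3 did not pass the test in the main model, and HIVEP2 was not tested. HIVEP1 averaged 13.5 ± 1.63 CPM at 5% and 9.95 ± 1.98 CPM at 10% CO2 (SD, n = 3), and 1 library at 10% CO2, at 12.2 CPM, was above the lowest library at 5% CO2, at 11.6 CPM. The difference was -0.44 ± 0.14 on the log2 scale (95% confidence interval -0.74 to -0.14) and did not pass over all genes (edgeR adjusted p = 0.118). It passed without replicate 1 of the 10% CO2 group (-0.61, edgeR adjusted p = 0.0247). With 1 library left out the difference ran from -0.61 to -0.33, and the edgeR adjusted p from 0.0247 to 0.391. In this comparison 1.46% of all genes were called, 0.799% higher and 0.665% lower.

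HIVEP2 averaged 41.7 ± 1.54 CPM at 5% CO2 and 30.2 ± 3.00 CPM at 10% CO2, and every library at 10% was below every library at 5%. This difference of -0.46 ± 0.10 belongs to the interaction and has no test, and libraries did not overlap for 20.7% of all tested genes in this comparison. HIVEP3 averaged 323 ± 46.3 and 256 ± 87.2 CPM, with overlap, and its difference was -0.33 ± 0.26 (95% confidence interval -0.92 to 0.25, edgeR adjusted p = 0.555).

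With LPS, HIVEP1 and HIVEP2 were higher at 10% than at 5% CO2. HIVEP2 averaged 121 ± 18.1 CPM at 5% CO2 with LPS and 197 ± 1.39 CPM at 10% CO2 with LPS, 1.63-fold higher (log2 0.71 ± 0.10, a description), with no overlap. HIVEP1 averaged 136 ± 12.7 and 176 ± 21.6 CPM, and the lowest library at 10% CO2, at 155 CPM, was above the highest at 5% CO2, at 146 CPM. Its difference of 0.37 ± 0.12 (95% confidence interval 0.12 to 0.63) stood just outside the threshold (edgeR adjusted p = 0.0593). It was inside the threshold without replicate 1 (edgeR adjusted p = 0.0231) or replicate 3 (edgeR adjusted p = 0.0428) of 10% CO2 without LPS. Those libraries are not in this comparison and enter only through the shared estimate of spread. With 1 library left out the difference ran from 0.29 to 0.47, and the edgeR adjusted p from 0.0231 to 0.214. In this comparison 8.75% of all tested genes were called, 4.29% of all tested were called higher, and 31.4% did not overlap.

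HIVEP3 averaged 342 ± 76.9 CPM at 5% CO2 with LPS and 319 ± 69.5 CPM at 10% CO2 with LPS. The libraries overlapped, and the difference was -0.10 ± 0.26 (edgeR adjusted p = 0.856). Averaged over LPS, the CO2 difference was -0.03 ± 0.09 for HIVEP1 (edgeR adjusted p = 0.850), 0.12 ± 0.07 for HIVEP2 (95% confidence interval -0.03 to 0.27, edgeR adjusted p = 0.260) and -0.22 ± 0.18 for HIVEP3 (edgeR adjusted p = 0.466), in a comparison in which 16.8% of genes were called, 8.06% higher and 8.69% lower. For HIVEP2 this near-zero mean joins a lower level without LPS to a higher level with it. The p and interval of this mean also share their estimate of spread with the interaction that chose HIVEP2. In bulk RNA a change in the share of responding cells and a change in RNA per cell cannot be told apart.

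**Figure D2:**
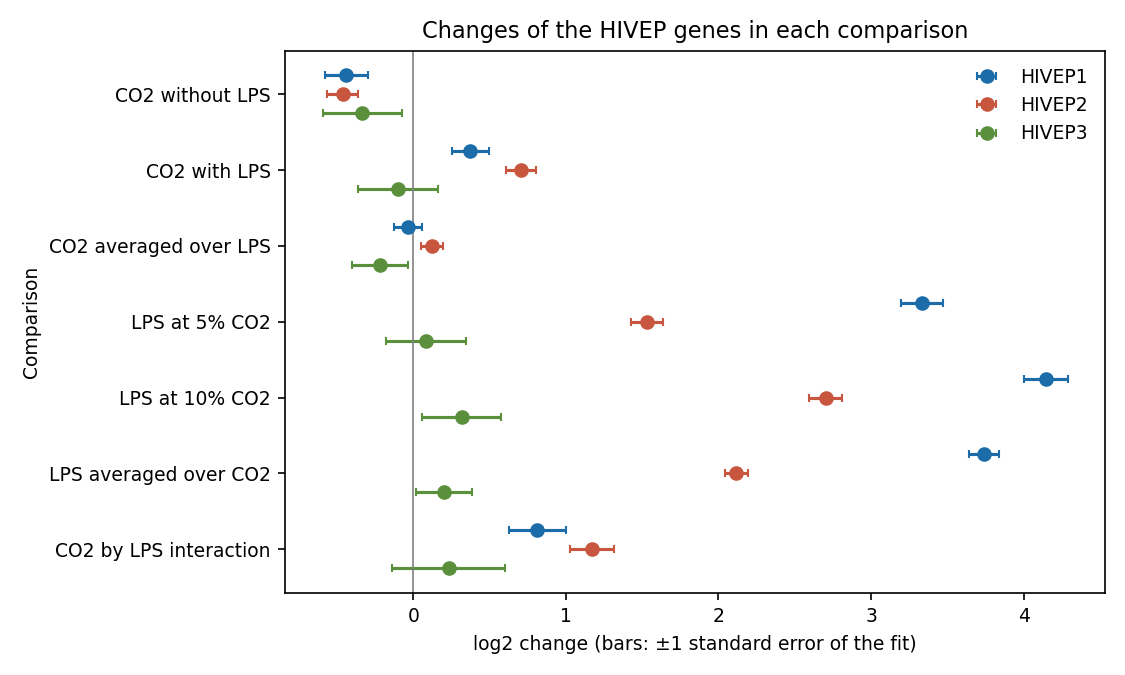
Log2 changes of the 3 HIVEP genes (points) with ±1 standard error of the edgeR fit (bars) in the 4 simple comparisons, the averages over CO2 or LPS, and the interaction. HIVEP1 and HIVEP2 lie left of 0 for CO2 without LPS and right of 0 for CO2 with LPS, and HIVEP3 has the widest bars.

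The interaction of HIVEP2 was 1.17 ± 0.14 on the log2 scale: its ratio of LPS to no LPS was 2.25 times as large at 10% as at 5% CO2. It ranked first of 16402 genes by p, which is the property it was picked for. HIVEP1 ranked 32 with 0.81 ± 0.19, and HIVEP3 ranked 9190 with 0.23 ± 0.37. In the interaction 4 genes (0.0244%) were called, all of them in the positive direction, and nothing is read from this for the HIVEP genes. Between libraries of the same number, HIVEP2 at 10% CO2 was 0.823, 0.655 and 0.701 times its level at 5% CO2 without LPS, and 1.63, 1.91 and 1.43 times with LPS.

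The 4 genes that followed HIVEP2 in that ranking were PDGFA, a growth factor chain, CD44, the hyaluronan receptor, STARD4, a cholesterol carrier, and CDK6, a kinase of the cell cycle. Their interactions were 1.33 ± 0.22, 1.17 ± 0.19, 0.92 ± 0.15 and 0.77 ± 0.14. Like HIVEP2, each had a negative CO2 difference without LPS and a positive one with LPS: -0.70 and 0.64 for PDGFA, -0.53 and 0.64 for CD44, -0.41 and 0.51 for STARD4, and -0.31 and 0.46 for CDK6. They were named for their rank, so these values are descriptions too. The LPS difference of CDK6 at 5% CO2 was 0.46, against 1.53 for HIVEP2.

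Per exon length, the family changed from one dominated by HIVEP3 to one shared among 3 members. The length is that of the exons merged over all annotated transcripts, and which transcripts were present was not tested. Levels compared between genes depend on that length. In RPKM (TMM-scaled CPM per kb of exon), HIVEP3 was at 22.7, HIVEP2 at 4.27 and HIVEP1 at 1.23 at 5% CO2, means of 3 libraries that did not overlap between genes. At 10% CO2 the order was the same, with 18.0, 3.09 and 0.907 RPKM. With LPS at 5% CO2 the values were 24.1 RPKM for HIVEP3, 12.3 ± 1.86 for HIVEP2 and 12.4 ± 1.16 for HIVEP1 (SD, n = 3), so HIVEP1 and HIVEP2 could not be ordered. At 10% CO2 with LPS they were 22.4 ± 4.88 for HIVEP3, 20.2 ± 0.142 for HIVEP2 and 16.0 ± 1.97 for HIVEP1, and there HIVEP2 could not be ordered against HIVEP3, whose libraries ran from 19.3 to 28.1 RPKM.

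HIVEP3 made up 80.4 ± 2.12% of the summed family RPKM at 5% CO2 and 81.2 ± 3.08% at 10% CO2, but 49.0 ± 7.38% with LPS at 5% CO2 and 38.0 ± 3.73% with LPS at 10% CO2. The share of HIVEP1 went from 4.35% and 4.20% without LPS to 25.5% and 27.4% with LPS, at 5% and 10% CO2. The share of HIVEP2 went from 15.3% and 14.6% to 25.5% and 34.7%. The summed level was 28.2 ± 3.29 RPKM at 5% CO2, 22.0 ± 6.58 at 10% CO2, 48.8 ± 5.22 at 5% CO2 with LPS and 58.6 ± 6.83 at 10% CO2 with LPS. The ratio of HIVEP1 to HIVEP2 per length was 0.288 and 0.292 without LPS, at 5% and 10% CO2, and 1.01 and 0.796 with LPS.

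**Figure D3:**
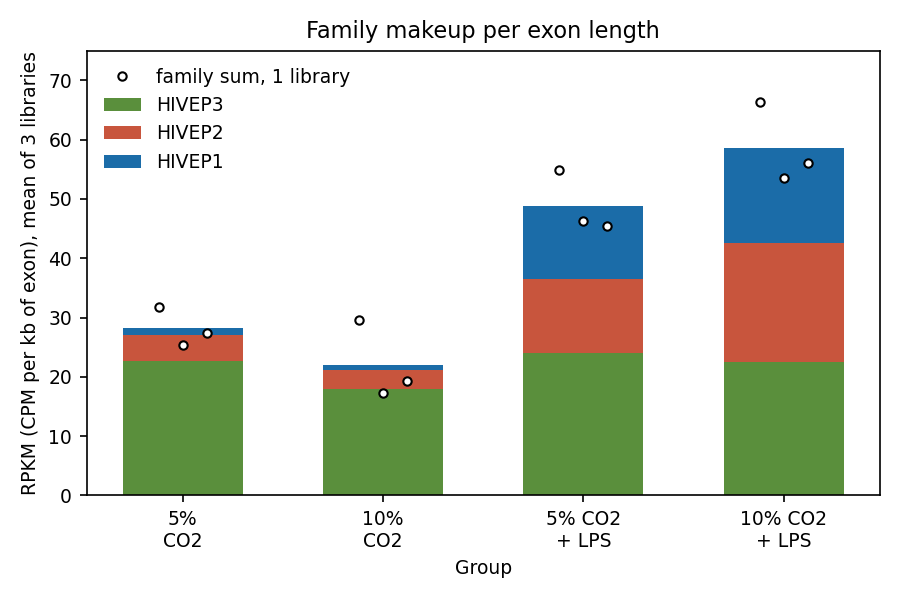
Stacked mean RPKM (CPM per kb of exon, 3 libraries per group) of HIVEP3, HIVEP2 and HIVEP1, with open points for the family sum in each library. The HIVEP3 segment stays between 18.0 and 24.1 RPKM while the HIVEP1 and HIVEP2 segments grow with LPS.

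The genes whose profile over the 12 libraries lay nearest to HIVEP2 were STARD4, KYNU, PIK3AP1, PI4K2B and PIM1. Nearness was the root mean square difference of log2 CPM, each gene centred on its own mean, over 10705 genes with a symbol and a mean of at least 5 CPM. It was 0.167 for STARD4, 0.172 for KYNU (kynureninase, of tryptophan breakdown), 0.182 for PIK3AP1 (an adaptor of PI3 kinase in Toll-like receptor signalling), 0.194 for PI4K2B (a phosphoinositide kinase) and 0.199 for PIM1 (a serine/threonine kinase), while the median gene stood 1.12 from HIVEP2. KYNU had interaction values much like STARD4, 0.87 and 0.92, and PI4K2B, at 0.50, was further from the 1.17 of HIVEP2. Ranked instead by Pearson correlation, 1 of the 5 genes, KYNU, was kept.

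Nearest to HIVEP1 were ZC3H12C at 0.155, NCOA7 at 0.202 and GBP2 at 0.208, against a median distance of 1.89. ZC3H12C is a relative of the RNase Regnase-1, NCOA7 a nuclear receptor coactivator and GBP2 a guanylate-binding protein induced by interferon. Their changes with LPS at 5% CO2 were 3.51, 3.65 and 3.49, close to the 3.33 of HIVEP1, and GBP2 had an interaction of 1.04. By Pearson correlation 0 of these 3 were kept. Nearest to HIVEP3 were SIPA1L1 at 0.131, CUX1 at 0.146 and ATAD2B at 0.146, against a median of 0.389, and 1 of the 3, ATAD2B, was kept by Pearson correlation. The distance between HIVEP1 and HIVEP2 themselves was 0.834, that between HIVEP2 and HIVEP3 1.04 and that between HIVEP1 and HIVEP3 1.78. Distances are descriptions over 12 libraries that share the same 4 treatments.

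Upstream of HIVEP2 the count tables carry a separate gene, ENSG00000224460, whose counts rose with LPS as well. It lies at chr6:142946047-142956698 on the same strand, 846 bases upstream of the 5′ end of HIVEP2. Its exons (chr6:142946047-142946193, 147 bases, and chr6:142956444-142956698, 255 bases) are the exons of a transcript that GENCODE release 44 assigns to HIVEP2, 1 of 10 transcripts of that gene. It had 13, 9 and 7 counts at 5% CO2 and 52, 39 and 34 with LPS, an increase of 2.17 ± 0.39 on the log2 scale (edgeR adjusted p = 0.000387). At 10% CO2 it had 7, 1 and 13 counts without and 49, 56 and 48 with LPS, an increase of 3.10 ± 0.41 (edgeR adjusted p = 6.94e-06). Its CO2 differences were -0.53 ± 0.52 without LPS (edgeR adjusted p = 0.637) and 0.41 ± 0.32 with LPS (edgeR adjusted p = 0.448), and neither was called. The counts given for HIVEP2 do not contain these reads.

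HIVEP2-DT, a divergent noncoding transcript on the opposite strand of that upstream region, overlaps it in 203 exon bases. The strand setting of the counting is not given in the sources used here, so reads of the overlap cannot be told apart between the pair. HIVEP2-DT had 0, 0 and 1 counts at 5% CO2, 2, 3 and 2 at 10% CO2, 28, 27 and 15 at 5% CO2 with LPS and 6, 13 and 14 at 10% CO2 with LPS. It was called higher with LPS at 5% CO2 (edgeR adjusted p = 6.82e-06) and at 10% CO2 (edgeR adjusted p = 0.00334), and no fold is given against counts this low. Scaled to depth, it was at 1.45, 1.40 and 0.738 CPM at 5% CO2 with LPS and at 0.355, 0.777 and 0.668 CPM at 10% CO2 with LPS, and the libraries overlapped. That difference was -0.98 ± 0.41 and did not pass (edgeR adjusted p = 0.142).

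Within 500 kb of the HIVEP genes, 0 tested neighbours were called by edgeR or by DESeq2 for CO2 at either LPS level or in the interaction, comparisons in which 1.46%, 8.75% and 0.0244% of all genes were called. There were 4 tested neighbours of 16 around HIVEP1, 6 of 17 around HIVEP2 and 12 of 25 around HIVEP3. At an unadjusted p under 0.05 stood 2 neighbours of HIVEP2 for CO2 without LPS, 3 for CO2 with LPS and 1 in the interaction, 2 neighbours of HIVEP3 for CO2 with LPS, and 0 in the remaining cases. Around HIVEP1, LPS lowered TMEM170B by 0.69 at both CO2 levels (-0.69 ± 0.16 each, edgeR adjusted p = 0.00388 and 0.00285). EDN1, the endothelin-1 precursor, and ADTRP, an androgen-dependent regulator of coagulation, had 0 to 3 counts without LPS and 1 to 17 with it, and were called higher at both CO2 levels. At 5% CO2 the call was lost without replicate 1 of 5% CO2 or replicate 1 of 5% CO2 with LPS for EDN1 (edgeR adjusted p up to 0.0861), and without replicate 1 or 3 of 5% CO2 or replicate 3 of 5% CO2 with LPS for ADTRP (up to 0.0641).

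Around HIVEP3, where 24.9% and 35.2% of all genes were called at 5% and 10% CO2, LPS changed 3 and 5 of the 12 tested neighbours. CTPS1, which makes CTP, rose by 0.31 ± 0.07 and 0.40 ± 0.07, and PPCS, of coenzyme A synthesis, fell by 0.28 and 0.36. FOXJ3 was at -0.32 ± 0.09 and -0.28 ± 0.09. Its call was lost at 5% CO2 without replicate 1 of 5% CO2 or replicate 3 of 5% CO2 with LPS (edgeR adjusted p up to 0.106), and at 10% CO2 without replicate 1 of 10% CO2 or replicate 2 or 3 of 10% CO2 with LPS (up to 0.123). FOXO6, at -1.08 ± 0.34, and ENSG00000230638, at 0.99 ± 0.34, were called at 10% CO2 alone. Their interactions, -0.48 ± 0.46 and 0.41 ± 0.48, were not called (edgeR adjusted p = 0.954 and 0.959), so no difference between CO2 levels was shown. FOXO6 lost its call without replicate 3 of 10% CO2 or replicate 1 or 2 of 10% CO2 with LPS (edgeR adjusted p up to 0.0909). ENSG00000230638, which lies within an intron of HIVEP3 on the opposite strand and shares no exon base with it, lost its call without replicate 3 of 5% CO2, replicate 2 or 3 of 10% CO2, or replicate 1 of 10% CO2 with LPS (up to 0.172). AIG1, near HIVEP2, was called higher with LPS at 10% CO2 by 0.30 ± 0.11. It lost the call without replicate 1 or 3 of 10% CO2, or replicate 2 or 3 of 10% CO2 with LPS. In these fits the edgeR adjusted p went up to 0.168. The interaction of AIG1, 0.12 ± 0.16, was not called (edgeR adjusted p = 0.959). For CO2 averaged over LPS, 2 of the 6 tested neighbours of HIVEP2 were called, against 16.8% of all genes. ADGRG6, an adhesion receptor, was at 0.41 ± 0.13 (edgeR adjusted p = 0.0293), and the call was lost without replicate 1 of 5% CO2, replicate 1 of 5% CO2 with LPS, replicate 2 of 10% CO2 or replicate 2 of 10% CO2 with LPS (0.0691 to 0.0831). PARLP2, a pseudogene, was at -0.41 ± 0.14 (edgeR adjusted p = 0.0421), and the call was lost when any library but replicate 3 of 5% CO2 was left out (up to 0.126) and with DESeq2 (0.0885); pseudogene reads may come from the parent gene.

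Exons of 2 other genes overlap those of HIVEP1 or HIVEP2. ENSG00000229896, on the same strand, shares 95 exon bases with HIVEP1 and had at most 2 counts in a library. ENSG00000233138, on the opposite strand, shares 254 exon bases with HIVEP2 and had 0 counts in all libraries.

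**Figure D4:**
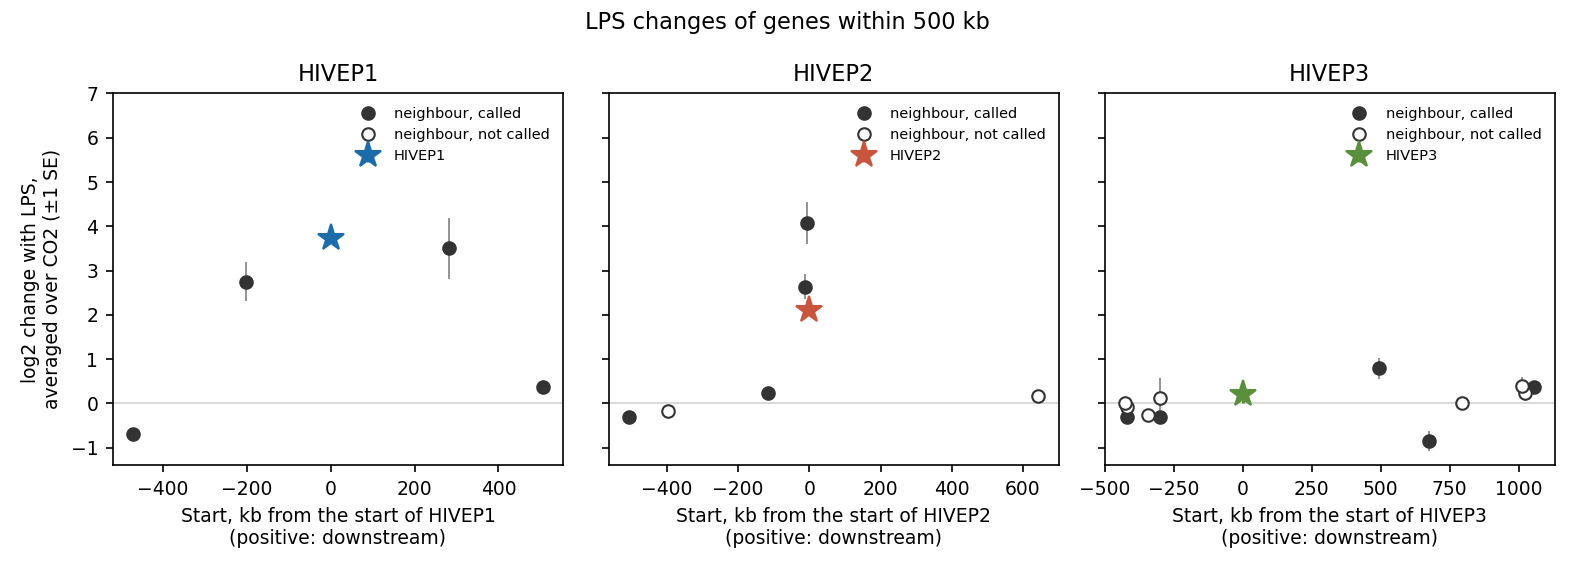
Log2 change with LPS averaged over CO2 (±1 standard error) for each tested gene within 500 kb, against the distance of its start from the start of the HIVEP gene in kb along the gene's direction. Filled points were called, and the star is the HIVEP gene. EDN1 and ADTRP (left panel) and HIVEP2-DT (highest point of the middle panel) had 0 to 3 counts in libraries without LPS, so their heights depend on the prior count of the fit.

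The list of Rel and IκB genes rose with LPS for the most part. It holds Rel subunits, which bind the κB sites that HIVEP proteins also bind, and cytoplasmic and nuclear IκB proteins. It also holds the IκB kinase genes CHUK, IKBKB and IKBKG. At 5% CO2, 11 of the 14 tested passed as higher and 0 as lower, and at 10% CO2 12 passed as higher and 0 as lower, where 11.8% and 16.6% of all genes were called higher, with median changes of 1.81 and 2.31 against -0.01 and -0.02 over all tested genes. The genes not called at 5% CO2 were CHUK, IKBKB and IKBKG (edgeR adjusted p = 0.230, 0.619 and 0.907). At 10% CO2 they were IKBKB and IKBKG (edgeR adjusted p = 0.837 and 0.330). NFKBIZ, a nuclear IκB protein, rose by 7.40 ± 0.12 at 5% CO2 and 7.42 ± 0.12 at 10% CO2. NFKBIA, the classical inhibitor IκBα, rose by 4.04 ± 0.12 and 4.29 ± 0.12. NFKB1, the p105/p50 subunit, rose by 3.20 ± 0.12 at 5% CO2, and RELB, a subunit of the noncanonical pathway, by 4.05 ± 0.13 at 10% CO2. HIVEP1, at 3.33 and 4.14, thus lay within the range of these genes, and HIVEP2, at 1.53 and 2.70, below and above the medians of the list.

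For CO2 without LPS, 3 of the 14 were called lower and 0 higher, against 0.665% of all genes lower, with a list median of -0.13. They were BCL3 at -0.85 ± 0.17, RELB at -0.61 ± 0.13 and NFKBID at -0.71 ± 0.16 (edgeR adjusted p = 0.0222, 0.0244 and 0.0382). Each of these calls was lost without replicate 1 or 2 of 5% CO2 or replicate 2 of 10% CO2 (edgeR adjusted p 0.0778 to 0.235). RELB and NFKBID were also lost without replicate 1 of 10% CO2 (0.0523 and 0.0637), and NFKBID without replicate 3 of 10% CO2 with LPS (0.0598). For CO2 with LPS 1 of 14 was called higher and 0 lower, against 4.29% and 4.46% of all genes, with a median of 0.03. That gene was NFKB1, at 0.41 ± 0.11 (edgeR adjusted p = 0.0301), and it was lost without replicate 2 of 5% CO2 with LPS or replicate 1 or 2 of 10% CO2 with LPS (0.103 to 0.130). In the interaction 0 of the 14 were called by edgeR or by DESeq2, and 4 had an unadjusted p under 0.05.

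BMP and SMAD genes, of the pathway in which Schnurri proteins act with SMADs, moved with LPS in both directions. Of 19 tested out of 21 listed (BMP7 and BMPR1B had too few counts), LPS at 5% CO2 gave 4 calls higher and 5 lower, against 11.8% and 13.1% of all genes, and LPS at 10% CO2 gave 5 higher and 7 lower, against 16.6% and 18.6%, with medians of -0.20 and -0.32. The ligand BMP2 rose by 2.00 ± 0.12 and 1.72 ± 0.12, the receptor ACVR2A by 2.36 ± 0.16 and 2.94 ± 0.16, and the inhibitory SMAD7 by 1.64 ± 0.10 and 2.00 ± 0.10, at 5% and 10% CO2. ID1, ID2 and ID3, the direct transcriptional targets of BMP receptors, were singled out after their values were seen. They fell by 1.03, 1.41 and 1.45 at 5% CO2 and by 0.90, 1.24 and 1.81 at 10% CO2.

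For CO2 without LPS, 1 of these 19 genes was called, against 1.46% of all genes: BMP2 at 0.54 ± 0.13 (edgeR adjusted p = 0.0433), a call that was lost when any 1 of 9 of the 12 libraries was left out (0.0503 to 0.218), all but replicates 2 and 3 of 5% CO2 with LPS and replicate 2 of 10% CO2 with LPS. For CO2 with LPS, 1 of 19 was called, against 8.75% of all genes: BMP6, another ligand, at 1.20 ± 0.35 (edgeR adjusted p = 0.0410), from a mean of 1.42 to 3.27 CPM. The BMP6 call was lost without replicate 1 or 2 of 5% CO2 with LPS, replicate 2 of 10% CO2, or replicate 2 or 3 of 10% CO2 with LPS (0.0501 to 0.225). In the interaction 0 of the 19 were called by edgeR or by DESeq2, and 4 had an unadjusted p under 0.05.

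Genes reported as partners or binding targets of HIVEP proteins were tested for 14 of 20, since SSTR2, IL2, GATA3, COL2A1, CRYAA and EGFR had at most 15 counts in a library. With LPS, 7 were called higher at either CO2 level, 3 lower at 5% CO2 and 4 lower at 10% CO2, with medians of 0.20 and 0.23. Over all genes 11.8% and 16.6% were called higher and 13.1% and 18.6% lower. JUN, the AP-1 subunit, rose by 3.07 ± 0.21 and 3.05 ± 0.21, the growth regulator MYC fell by 2.74 and 3.23, and CEBPA, the myeloid factor C/EBPα, fell by 2.13 and 2.72. IFNB1, interferon-β, had 0 counts in the 3 libraries at 5% CO2 and 10 to 19 with LPS, at least 5.09-fold higher when each library without LPS is set at 3 counts, and the list median is 0.20 with IFNB1 at that bound.

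For CO2 with LPS, 4 of these 14 genes were called lower and 0 higher, against 4.46% of all genes lower, with a median of -0.04. CEBPA was at -0.88 ± 0.18 and MYC at -0.42 ± 0.10 (edgeR adjusted p = 0.0145 and 0.0195). Another was RUNX2, the bone and lymphoid factor, at -0.60 ± 0.17 (edgeR adjusted p = 0.0424), which was named after its value was seen. The RUNX2 call was lost without replicate 2 or 3 of 5% CO2, replicate 1 or 2 of 5% CO2 with LPS, replicate 2 of 10% CO2, or replicate 2 or 3 of 10% CO2 with LPS (0.0515 to 0.175). CEBPA and MYC each lost the call without replicate 2 of 10% CO2 with LPS (0.0760 and 0.129). Both also lost it without replicate 1 of 5% CO2 with LPS (0.0612 and 0.116), and MYC without replicate 3 of 10% CO2 with LPS (0.0547). For CO2 without LPS and in the interaction, 0 of the 14 were called by edgeR or by DESeq2, and 2 had an unadjusted p under 0.05 in each.

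Other long zinc finger factors, listed as genes of similar build, had small median changes with LPS. Of 18 tested out of 25, LPS gave 1 call higher and 4 lower at 5% CO2 and 2 higher and 4 lower at 10% CO2, with medians of -0.10 and -0.05. Over all genes 11.8% and 16.6% were called higher and 13.1% and 18.6% lower. The called gene with the smallest p that rose was ZEB2, a SMAD-binding factor, at 0.75 ± 0.10 and 0.90 ± 0.10. TSHZ1, a teashirt homeobox factor, was at -0.75 ± 0.10 and -1.05 ± 0.10, and RREB1, which binds RAS-responsive elements, at -0.76 ± 0.17 and -1.16 ± 0.18. For CO2 with LPS, 2 of the 18 were called lower, against 4.46% of all genes, RREB1 at -0.73 ± 0.18 (edgeR adjusted p = 0.0229) and TSHZ1 at -0.35 ± 0.11 (edgeR adjusted p = 0.0461).

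The RREB1 call was lost without replicate 2 of 5% CO2 with LPS or replicate 2 or 3 of 10% CO2 with LPS (edgeR adjusted p 0.0532 to 0.118). The TSHZ1 call was lost when any 1 of 8 libraries was left out (0.0529 to 0.236), the exceptions being replicates 2 and 3 of 5% CO2 and replicates 1 and 3 of 10% CO2. For CO2 without LPS and in the interaction, 0 of the 18 were called by edgeR or by DESeq2, and 1 had an unadjusted p under 0.05 in each. The median over the 18 for CO2 with LPS was 0.15, opposite in sign to both called genes.

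**Figure D5:**
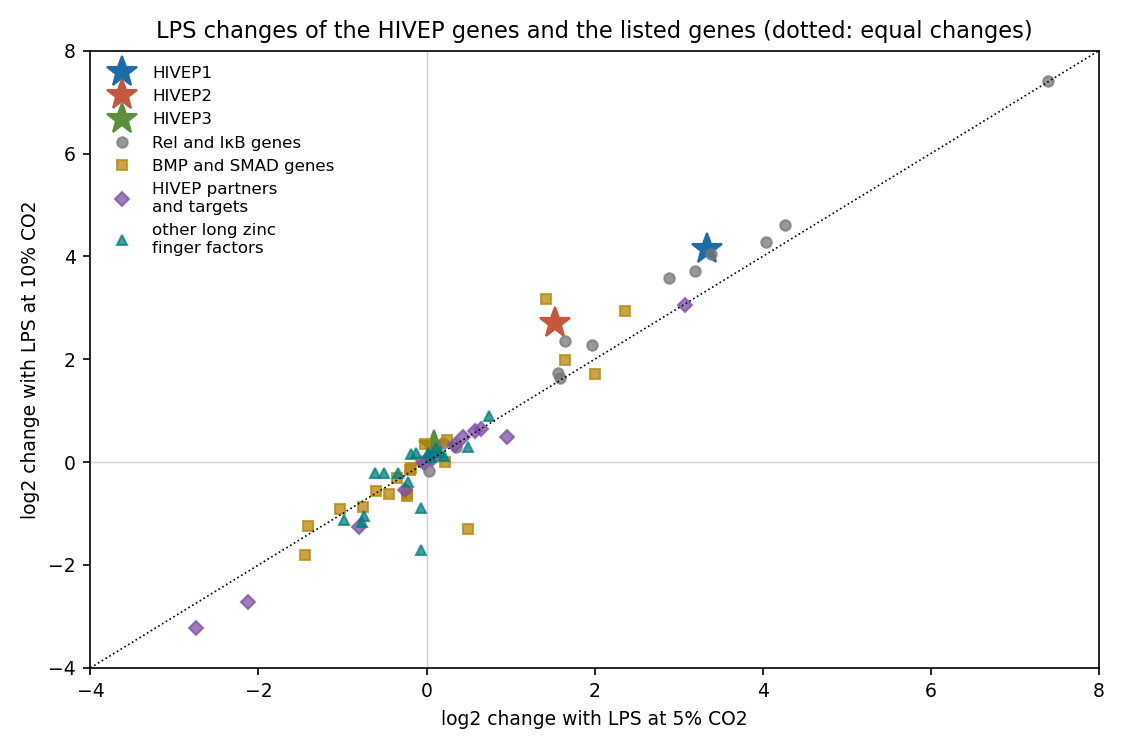
Log2 change with LPS at 10% CO2 against that at 5% CO2 for the HIVEP genes (stars) and the tested members of 4 gene lists, with a dotted line where both are equal. HIVEP1 and HIVEP2 lie above the line among the Rel and IκB genes, HIVEP3 lies near 0 with most other long zinc finger factors, and IFNB1, at 0 counts at 5% CO2, is not drawn.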

How the data were processed

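The authors deposited a table of unnormalized read counts for each library, keyed by Ensembl identifiers. The submitters' processing notes name GRCh38, featureCounts of Subread 1.5.2, STAR 2.5.2b and Trimmomatic 0.36. Annotation release, strandedness and the handling of multiply mapped reads were not given in the sources used here. Symbols came from a reference table (40907 of 57500 identifiers). Counts were analysed in R 4.3.3 with edgeR 4.0.16 (filterByExpr by group, TMM, robust quasi-likelihood F test) in 1 model with 4 group means over all 12 libraries. A call is a Benjamini-Hochberg adjusted p under 0.05 over 16402 genes. SEs come from the fit, and the scripts were tested on simulated data.

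Groups and replicate numbers came from the sample titles. Deviations of same-numbered libraries from their group means (10811 genes) correlated at 0.45, 0.43 and 0.21 for LPS at 10% CO2, which was taken as pairing. In each other comparison at least 1 pair was at or under 0.1 (range over all comparisons -0.36 to 0.58). For LPS at 5% CO2 the pairs of replicates 1, 2 and 3 were at 0.58, 0.09 and 0.29. For CO2 they were at 0.44, 0.17 and -0.36 without LPS, and at 0.56, -0.19 and -0.08 with LPS. Replicates 1 thus correlated in every comparison, and the main model holds no term for this. No library repeated another of its group within counting error (chi-square divided by its degrees of freedom, 8.91 to 29.2 over 12 pairs).

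The members and lists were chosen with earlier results of these data known. Named genes were the HIVEP genes, the 5 nearest to HIVEP2 and 3 nearest to HIVEP1 and HIVEP3, the 4 after HIVEP2 in the interaction, neighbours within 500 kb that overlap or were called, and up to 3 called members per list and comparison with the smallest p. Lists were Rel and IκB genes, BMP and SMAD genes, reported HIVEP partners and targets, other long zinc finger factors, LPS targets and cell type markers. The values of 1 called member of the partner list are not reported here. Alternatives were RLE and upper-quartile factors, no low-count filter, the replicate block, GC and length corrections, fits of only the groups compared, DESeq2 1.42.0, and each library left out. The block with GC correction was added after seeing the data. Count floors were 3 counts per library and cover counting error only.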

Additional observations from a re-analysis of the deposited data

Results flagged for a closer look

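The CO2 difference of HIVEP2 was not the same without and with LPS: it was -0.46 without LPS and 0.71 with LPS, and their difference, the interaction, was 1.17 on the log2 scale. Every library at 10% CO2 was below every library at 5% CO2 without LPS, and above with LPS. The groups also did not overlap for 20.7% of all tested genes without LPS and for 31.4% with LPS. The gene was chosen for this value, so it has no test here.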

How the results depend on the processing

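Values of the HIVEP genes were recomputed under 9 other settings and with each of 12 libraries left out. Of 288 values with a test, 264 kept their direction and side of the threshold, 16 passed it newly, 0 lost a call and 8 changed sign, and the value that changed sign was not called in any of the 8. The 16 belong to HIVEP1 for CO2 and to HIVEP3 with a replicate block, and their cause was not tested. HIVEP3 for CO2 with LPS changed sign with GC correction (0.022), with the replicate block and GC correction (0.0088) and with 1 library left out, where it ran from -0.29 to 0.061. With 1 library left out HIVEP3 for LPS at 5% CO2 ran from -0.076 to 0.24, and HIVEP1 for CO2 averaged over LPS from -0.12 to 0.02. The 144 values given without a test include the interaction of HIVEP2, which ran from 1.06 to 1.28 with 1 library left out.

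HIVEP1 for CO2 without LPS was called with no low-count filter (-0.42, adjusted p = 0.0337), with the replicate block (-0.44, adjusted p = 0.0260) and with the block and GC correction (-0.43, adjusted p = 0.00411), and ran from -0.61 to -0.33 with 1 library left out. HIVEP1 for CO2 with LPS was called with no low-count filter (0.36), the replicate block (0.37), length correction (0.36), GC correction (0.35), the block and GC correction (0.35), only the groups compared (0.37) and DESeq2 (0.38), with adjusted p from 0.00152 to 0.0489, and ran from 0.29 to 0.47 with 1 library left out. HIVEP3 was called with the replicate block for LPS at 10% CO2 (0.34), CO2 averaged over LPS (-0.24, adjusted p = 0.0325) and LPS averaged over CO2 (0.21, adjusted p = 0.0314).

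Counts of genes called moved more. For CO2 without LPS, 240 became 572 with no low-count filter, 699 with the replicate block, 784 with GC correction, 1845 with both block and GC correction, 71 with only the groups compared and 696 with DESeq2. With 1 library left out the count ran from 0 (without replicate 2 of 10% CO2) to 511 (without replicate 1 of 10% CO2). For CO2 with LPS, 1435 became 2778 with block and GC correction and 271 to 1804 with 1 library left out. For CO2 averaged over LPS, 2748 became 4494 with block and GC correction and 1664 to 3005 with 1 library left out. In the interaction, 4 became 1 with RLE factors, 2 with upper-quartile factors, 108 with no low-count filter, 11 with the replicate block, 32 with block and GC correction, 53 with DESeq2 and 1 to 37 with 1 library left out.

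Among named list genes and neighbours, fitting only the groups compared ended the CO2 calls of RELB (adjusted p = 0.0701), NFKBID (0.107), BMP2 (0.115), NFKB1 (0.0984), RREB1 (0.0943), RUNX2 (0.0641) and TSHZ1 (0.0595). GC correction ended those of NFKB1 (0.20), TSHZ1 (0.0607) and the LPS calls of AIG1 (0.383), FOXO6 (0.0625) and ENSG00000230638 (0.0505). The block with GC correction ended those of RREB1 (0.0654), NFKB1 (0.156) and AIG1 (0.0689). Upper-quartile factors ended that of AIG1 (0.101), length correction those of ENSG00000230638 (0.0531) and PARLP2 (0.0521), and leaving out the low-count filter those of TSHZ1 (0.0629) and PARLP2 (0.128). By the check used here, the replicate numbers pair all libraries for LPS at 10% CO2 alone. Elsewhere replicates 1 correlated (0.44 to 0.58), but at least 1 other pair was at or under 0.1. Pairing as a whole was thus not shown there.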
